A study of Arabidopsis thaliana with 6 samples.

Results

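The genes described here are those that encode small signalling peptides of Arabidopsis thaliana. They were chosen by symbol alone, as the genes whose symbol is RALF, RALFL, CLE, EPF, EPFL, IDA, IDL, PSK, RGF, GLV, CEP, DVL or RTFL, alone or followed by a number. Of 113 genes with such a symbol in the RefSeq annotation, 41 were measured under a gene name, among 16544 named genes and 28501 tested probe sets in all. They comprised 18 members of the RALF family, 16 of the CLE family, 2 of the IDA/IDL family and 5 of the DVL/RTFL family. The EPF/EPFL, PSK, RGF/GLV and CEP families had 0 members under a gene name in the table used here. Each of the 41 genes had 1 probe set, which named that gene alone.

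RNA was hybridized to Affymetrix whole-transcript arrays, 1 array per sample, for 3 wild-type (WT) and 3 ara6-1 samples, which the labels call biological replicates. Both groups were of the Columbia accession, and ara6-1 is a knock-out line of ARA6, a plant-specific RAB5 GTPase that acts in endosomal membrane traffic. It was the single mutant line measured, so line and genotype cannot be told apart. RNA came from entire plants at an age of 14 days, grown on MS plates in continuous light at 23 °C after 1 day at 4 °C. The series asked how the loss of ARA6 bears on starch and sugar homeostasis.

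Peptide signals in plants are made as small precursors that enter the secretory pathway, are often cut by subtilisin-like proteases, and are read at the cell surface by receptor kinases. RALF peptides (rapid alkalinization factors) bind receptor kinases of the FERONIA type and control cell expansion, immunity and pollen tube growth. CLE peptides (CLAVATA3/ESR-related) bind leucine-rich repeat receptor kinases and set the balance of division and differentiation in meristems and vascular tissue. IDA is the abscission signal read by HAESA and HSL2, and the IDL genes are its relatives. DVL/RTFL polypeptides (DEVIL, ROTUNDIFOLIA FOUR-LIKE) alter cell proliferation and organ shape when overexpressed. They are known as plasma membrane-associated polypeptides and not as secreted ones, so the name "secreted signalling peptide" applies to the RALF, CLE and IDL members.

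All values are log2 of the deposited linear intensity. The intensity of a probe set depends on its probes as well as on its transcript, so the level of a gene was not set against that of another gene. The 6 arrays had medians of 28.8 to 29.2 on the linear scale. The ARA6 transcript (AT3G54840) lay between 7.99 and 8.397 in the WT arrays and between 6.89 and 7.15 in the mutant arrays, without overlap of the groups (limma, adjusted p = 0.140). The arrays of WT replicate 3 and ara6-1 replicate 1 were less like their groups than the other 4: the SD of the deviations from the group mean over the brighter probe sets was 0.169 and 0.165, against 0.120 to 0.126. For several genes below, the value without one of these arrays is given as well. The labelled whole tissue carried green tissue and root markers at high intensity. RCA, the Rubisco activase gene, lay at percentile 99.5 and PYK10, a root beta-glucosidase gene, at percentile 99.7 of all tested probe sets. Summed over the 3 root markers measured of 10 listed (PYK10, EXPA7 and EXPA18), the linear intensity was 4864 to 4982 in WT and 5160 to 5377 in ara6-1. This sum is almost all PYK10, whose log2 intensity was 12.21 to 12.25 in WT and 12.29 to 12.36 in ara6-1 (log2 difference 0.11; limma, adjusted p = 0.727). The groups overlapped for EXPA7 and EXPA18, with log2 differences of 0.10 and -0.03. Summed over the 4 of 12 green tissue markers, the linear intensity was 6896 to 7507 in WT and 7299 to 7612 in ara6-1. Among them LHCB4.1 had separated groups, at 9.72 to 9.77 in WT and 9.81 to 10.05 in ara6-1 (log2 difference 0.17; limma, adjusted p = 0.634). The groups overlapped for SBPASE, RCA and PRK, with log2 differences of 0.082, 0.00055 and 0.0755. The part of tissue composition in the results below was not tested. In whole plants, fewer cells of a type and less RNA per cell cannot be told apart.

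Most of the peptide genes gave dim signals. Of the 41, 22 (53.7%) lay among the dimmest 33.3% of all probe sets, below a mean log2 intensity of 3.52, and 8 lay above the median of all probe sets. Of the 18 RALF genes, 11 were in that dim range. The pollen pectin methylesterase gene VGD1, a marker of pollen, had a mean log2 intensity of 1.72 in WT and 1.75 in ara6-1, and its relative VGDH1 3.63 and 3.67. Summed over these 2 of 11 listed flower, pollen and seed markers, the linear intensity was 14.3 to 17.1 in WT and 15.1 to 16.7 in ara6-1. No detection call was used, so whether a dim probe set measured a transcript is not known, and the size of a difference between dim values is uncertain and may be understated. Whether the probes of a gene also bind transcripts of its relatives was not tested.

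**Figure D1:**
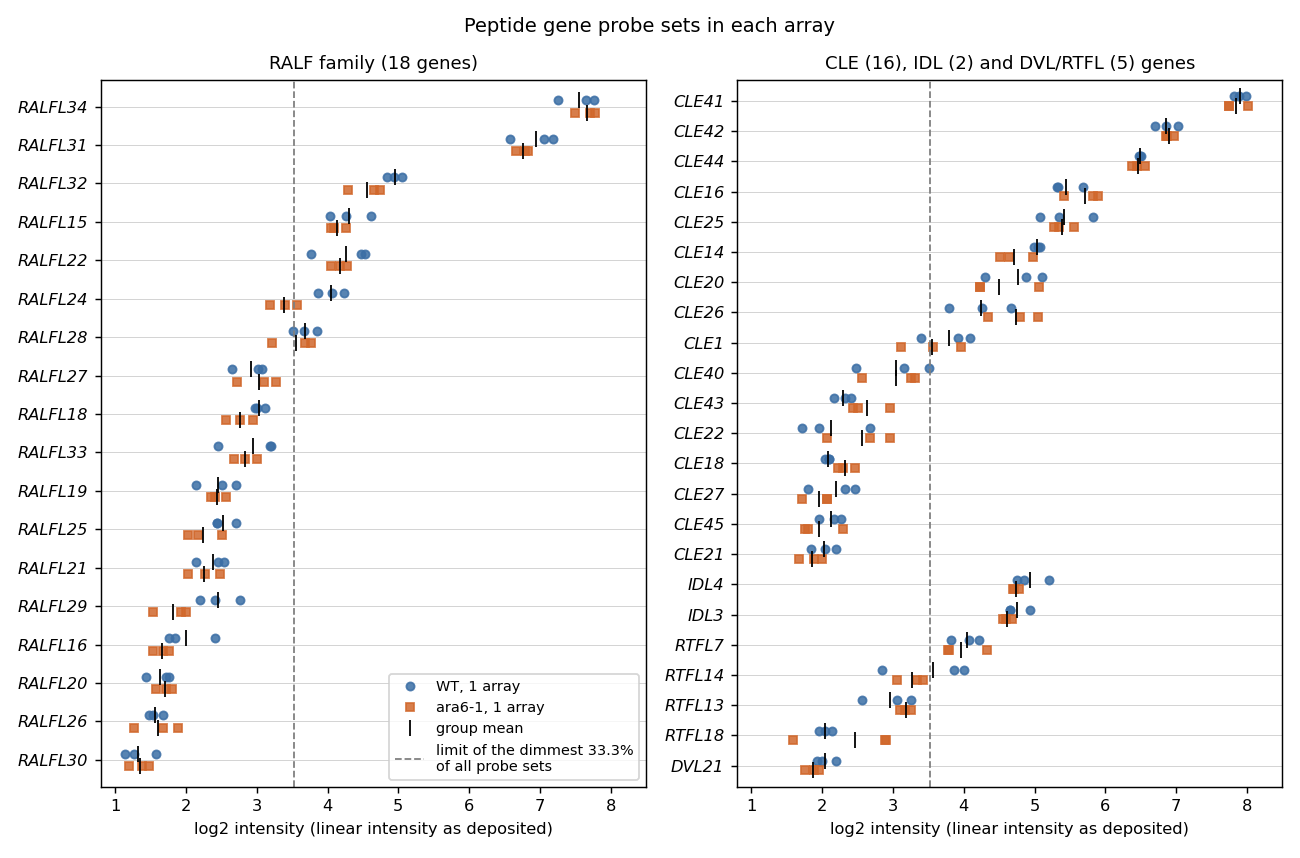
Log2 intensity (horizontal axis) of each of the 41 peptide genes in every array, with WT arrays as circles, ara6-1 arrays as squares, group means as vertical ticks, and a dashed line at 3.52, below which the dimmest 33.3% of all probe sets lie. Between the genotypes most genes overlap, and RALFL24 is among the 7 genes that do not.

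None of the 41 peptide genes passed a Benjamini-Hochberg adjusted p of 0.05 in limma over the 28501 probe sets, where 3 probe sets passed in all (0.0105%). The smallest adjusted p among them was 0.493. At an unadjusted p under 0.05 in limma there were 5 of the 41 (12.2%), against 9.01% of all probe sets. CLE18 was higher in ara6-1 (background 3.63% in this direction), and RALFL24, RALFL29, RALFL32 and CLE14 were lower (background 5.39%). In 7 of the 41 (17.1%) the arrays of the 2 groups did not overlap, against 15.7% of all probe sets and 10.5% of the dimmest 33.3%. Of these, 2 were higher in the mutant (background 7.81%) and 5 lower (background 7.85%). Both shares were near the background, so they say nothing particular about peptide genes. An exact permutation test of 3 arrays against 3 cannot give a two-sided p below 0.10 for a single gene.

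The differences between the group means on the log2 scale, ara6-1 minus WT, had a median of -0.11, against -0.00182 over all probe sets. Negative values were found in 28 of the 41 (68.3%), against 50.4% of all probe sets and 61.7% of the dimmest 33.3%. Of the 19 members above the dim range, 15 had negative values (78.9%), where 44.7% of all probe sets above that range did. Those probe sets were brighter than the 19 members, with a median of the mean log2 intensities of 6.07 against 4.75. Log2 differences varied with intensity. Over all probe sets their median was -0.04 at intensities near 3.49 and 0.04 near 7.44. The 44.7% is therefore not the share at like intensity. Without single arrays 25 to 29 of the 41 values were negative, without both arrays that stood apart 24, and after renewed quantile normalization 26 (48.0% of all probe sets). These counts are descriptions and were not tested. The log2 differences of the 41 ran from -0.67 for RALFL24 to 0.49 for CLE26. A difference over 1.5-fold in size was found in 2 of them, RALFL24 and RALFL29. For 36 of the 41 the whole 95% interval lay within a 2-fold difference in either direction, and for 23 within 1.5-fold.

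**Figure D2:**
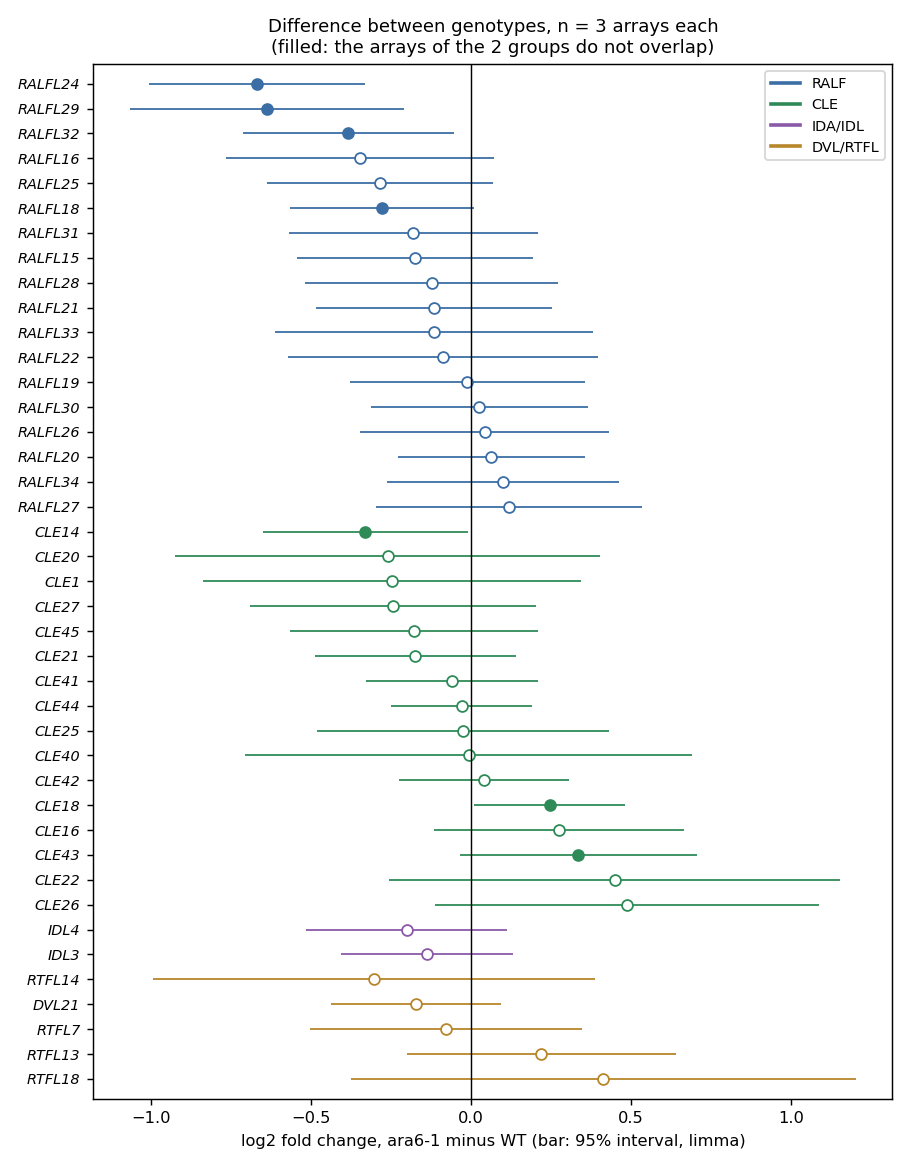
Log2 difference of ara6-1 against WT for each of the 41 peptide genes, with 95% intervals from limma as bars, grouped by family in colour, and filled points where the arrays of the 2 groups do not overlap (3 arrays each). The largest differences in size are the negative ones of RALFL24 (-0.67) and RALFL29 (-0.64).

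Within the RALF family, RALFL24 (AT3G23805) had the largest difference and the smallest p. The WT arrays, replicates 1 to 3 in order here and below, read 4.23, 3.86 and 4.06, and the ara6-1 arrays 3.57, 3.39 and 3.19. The lowest WT array thus lay above the highest mutant array. The means were 4.05 ± 0.19 and 3.38 ± 0.19 (SD, n = 3 each). The log2 difference was -0.67 (SE 0.14, 95% interval -1.004 to -0.33), or 1.59-fold lower in the mutant. The mean over all arrays, 3.72, lay just above the limit of the dim range, 3.52. Mutant replicates 2 and 3 lay below that limit, so the size of the difference is uncertain. In limma the unadjusted p was 0.00210 and the adjusted p 0.493, with 115 probe sets of the array at a smaller p. The unadjusted p stayed under 0.05 in each of the 15 alternatives tried, with log2 differences from -0.57 to -0.76. Without both arrays that stood apart the value was -0.76 (limma, adjusted p = 0.349).

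RALFL29 (AT4G11653) was the other RALF gene with a difference over 1.5-fold. It stood at 2.77, 2.20 and 2.41 in WT and at 1.93, 1.54 and 2.00 in ara6-1. The groups did not overlap, and the mutant arrays came down to 2.9 on the linear scale, where the 5th percentile of the arrays was 2.9 to 3.2. The log2 difference of RALFL29 was -0.64 (SE 0.18; limma, unadjusted p = 0.00961, adjusted p = 0.517). Without a detection call its size is not determined. RALFL32 (AT4G14010) stood at 5.06, 4.84 and 4.94 in WT and at 4.65, 4.74 and 4.29 in ara6-1. All 3 mutant arrays lay below all WT arrays, replicate 3 the farthest. Its log2 difference was -0.38 with a 95% interval of -0.71 to -0.05 (limma, unadjusted p = 0.0285, adjusted p = 0.542), and -0.25 without ara6-1 replicate 3 (limma, unadjusted p = 0.0862). RALFL18 (AT2G33130) was the last RALF gene with separated groups, at 2.98, 3.12 and 3.00 in WT and 2.77, 2.94 and 2.56 in ara6-1 (log2 difference -0.28; limma, adjusted p = 0.564). It was -0.18 without ara6-1 replicate 3.

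The 4 RALF genes with separated groups were all lower in the mutant (22.2% of 18, against 7.85% of all probe sets separated in this direction). This share rests on 4 genes, and their differences had adjusted p of 0.493 to 0.564 in limma. Over the family, 13 of 18 genes had negative log2 differences and the median was -0.12. Leaving out single arrays gave 12 to 15 negative values, and leaving out both arrays that stood apart gave 10. The family's log2 differences ended at 0.12 for RALFL27 on the upper side.

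RALFL34 (AT5G67070), the ligand of THESEUS1 known from lateral root initiation, had the brightest RALF probe set. It was at 7.76, 7.64 and 7.26 in WT and at 7.495, 7.70 and 7.77 in ara6-1. The groups overlapped, with WT replicate 3 the lowest of the 6. The means of 7.56 ± 0.26 and 7.66 ± 0.15 (SD, n = 3 each) gave a log2 difference of 0.10 with a 95% interval of -0.26 to 0.46, and -0.05 without WT replicate 3. RALFL31 (AT4G13950) stood at 7.19, 7.06 and 6.58 in WT and 6.79, 6.83 and 6.67 in ara6-1. WT replicate 3 lay below the mutant arrays, and the other WT arrays lay above them. Its log2 difference was -0.18 with all arrays and -0.36 without WT replicate 3 (limma, unadjusted p = 0.315 and 0.0168, adjusted p = 0.754 and 0.4285).

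RALFL22 (AT3G05490), a FERONIA ligand of vegetative tissue, showed the same arrangement of arrays. It was at 4.47, 4.53 and 3.77 in WT and at 4.18, 4.28 and 4.05 in ara6-1. The log2 difference was -0.09 with all arrays and -0.33 without WT replicate 3 (limma, adjusted p = 0.911 and 0.447). RALFL33 (AT4G15800), which is known to dampen immune signalling through FERONIA, had 1 low WT array, replicate 1 at 2.46, while the others stood at 3.20 and 3.19. Its mutant arrays were at 2.83, 3.00 and 2.68, a log2 difference of -0.11 with all arrays (limma, adjusted p = 0.881). That difference was -0.36 without WT replicate 1 and 0.01 without WT replicate 2 (limma, adjusted p = 0.711 and 0.99). WT replicate 1 held the unlike value, so the -0.36 follows from the choice of the array left out. RALFL15, RALFL27 and RALFL28 had overlapping groups as well, with log2 differences of -0.17, 0.12 and -0.12.

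The dimmest RALF probe sets included genes known from pollen. RALFL19 (AT2G33775), which with RALF4 keeps the growing pollen tube intact, had means of 2.45 ± 0.29 and 2.44 ± 0.11 (SD, 3 WT and 3 ara6-1 arrays). The log2 difference of RALFL19 was -0.01, with a 95% interval of -0.38 to 0.36. RALFL30 (AT4G13075) was the dimmest of the 41 genes, at 1.58, 1.14 and 1.26 in WT and 1.202, 1.49 and 1.38 in ara6-1. These are linear intensities of 2.2 to 3.0, near or below the 5th percentile of the arrays, and carry no order. RALFL25 (AT3G25165) and RALFL26 (AT3G25170) lie in the same stretch of the annotation with 1 gene between them. RALFL25 had means of 2.52 in WT and 2.24 in ara6-1, and RALFL26 of 1.57 and 1.61, with overlapping groups in both. The remaining dim genes RALFL16, RALFL20 and RALFL21 had log2 differences of -0.35, 0.06 and -0.12, and that of RALFL16 was -0.15 without WT replicate 3.

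**Figure D3:**
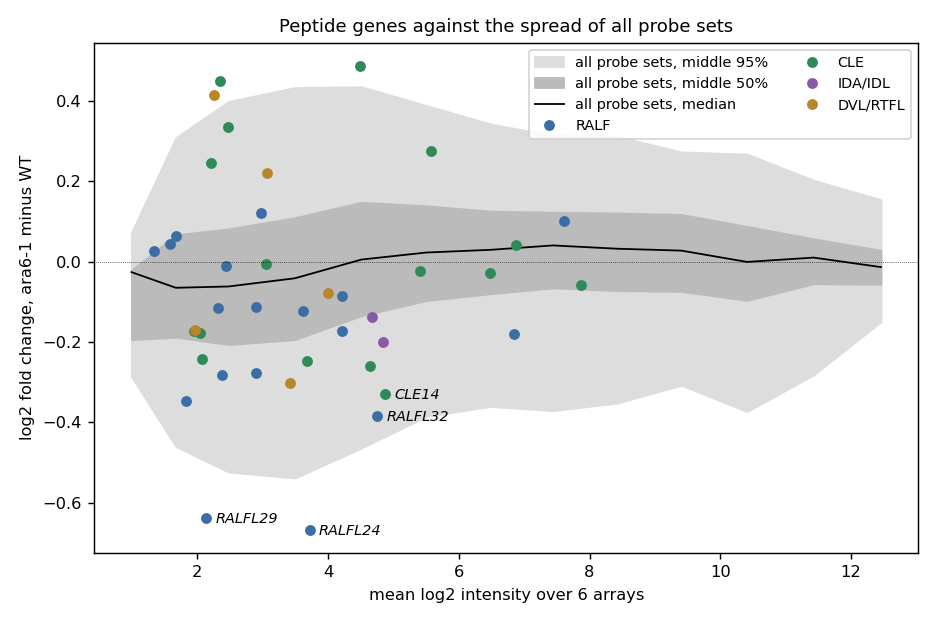
Log2 difference of ara6-1 against WT plotted on the mean log2 intensity over the 6 arrays, with the middle 95% and 50% of all 28501 probe sets at each intensity in grey and the peptide genes in colour by family. Of the 41 genes, 36 lie inside the middle 95% of probe sets of like intensity. RALFL24, RALFL29, CLE22, CLE26 and RTFL18 lie outside.

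Among CLE genes, CLE41, CLE42 and CLE44 had the brightest probe sets. CLE41 and CLE44 encode the same mature peptide, TDIF, which keeps vascular stem cells dividing and holds back xylem formation through the receptor PXY, and CLE42 encodes a close relative of it. CLE41 (AT3G24770) stood at 7.99, 7.88 and 7.82 in WT and at 7.75, 7.75 and 8.02 in ara6-1. CLE44 (AT4G13195) was at 6.47, 6.49 and 6.50 in WT and at 6.38, 6.55 and 6.44 in ara6-1. CLE42 (AT2G34925) was at 6.85, 7.02 and 6.70 in WT and at 6.87, 6.86 and 6.97 in ara6-1. In all 3 genes the groups overlapped and the arrays lay close together.

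The log2 difference of CLE41 was -0.06 with a 95% interval of -0.33 to 0.21, a mutant level of 0.798 to 1.16 times that of WT. For CLE44 it was -0.03, with an interval of -0.25 to 0.19 that was the narrowest among the peptide genes (0.842 to 1.14 times WT). For CLE42 it was 0.04, with an interval of -0.23 to 0.31 (0.855 to 1.24 times WT). A difference of 1.5-fold in these genes therefore lies outside their intervals.

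CLE14 (AT1G63245), a gene known from the root's response to low phosphate, was at 5.08, 5.05 and 4.99 in WT and at 4.98, 4.51 and 4.64 in ara6-1. The groups did not overlap, and the highest mutant array, replicate 1, lay just below the lowest WT array. Its log2 difference was -0.33 (SE 0.14; limma, unadjusted p = 0.0448, adjusted p = 0.552). It was -0.47 without ara6-1 replicate 1, which was unlike its group, and -0.23 without ara6-1 replicate 2 (limma, unadjusted p = 0.00406 and 0.151, adjusted p = 0.383 and 0.828). CLE18 (AT1G66145) was at 2.04, 2.104 and 2.104 in WT and at 2.29, 2.23 and 2.46 in ara6-1, a log2 difference of 0.25 (limma, unadjusted p = 0.0428, adjusted p = 0.552). CLE43 (AT1G25425) was at 2.41, 2.32 and 2.17 in WT and at 2.43, 2.96 and 2.51 in ara6-1, with a log2 difference of 0.34 (limma, adjusted p = 0.575). Both were higher in all 3 mutant arrays, and both lay in the dim range.

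The largest positive log2 differences of the family came with wide spreads. CLE26 (AT1G69970), known from root protophloem and root architecture, stood at 3.80, 4.67 and 4.26 in WT and at 4.35, 5.05 and 4.79 in ara6-1. The groups overlapped in spite of a log2 difference of 0.49, whose 95% interval ran from -0.11 to 1.09 (limma, adjusted p = 0.606). The log2 difference of CLE26 was 0.26 without WT replicate 1 and 0.70 without WT replicate 2 (limma, adjusted p = 0.812 and 0.605). CLE22 (AT5G12235) was at 2.68, 1.72 and 1.96 in WT and at 2.96, 2.68 and 2.07 in ara6-1, a log2 difference of 0.45 (limma, adjusted p = 0.667). For CLE22 it ran from 0.25 to 0.73 without single arrays, and was 0.17 without both arrays that stood apart. CLE40 (AT5G12990), which regulates the stem cells of the root tip, had the largest spread within WT among the CLE genes (SD 0.52). It was at 2.49, 3.51 and 3.15 in WT and at 3.26, 3.31 and 2.56 in ara6-1, and its log2 difference of -0.01 had a 95% interval of -0.70 to 0.69. For CLE40, a difference of 1.5-fold in either direction lies within that interval.

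CLE25 (AT3G28455), a peptide known to move from root to leaf under dehydration, had means of 5.42 ± 0.38 and 5.39 ± 0.14 (SD, 3 WT and 3 ara6-1 arrays), a log2 difference of -0.02. CLE20, known to restrain root growth when supplied or overexpressed, had 4.77 ± 0.41 and 4.51 ± 0.48 (SD, n = 3 each). CLE1, which belongs to a group of root CLE genes responsive to nitrogen supply, had 3.80 ± 0.36 and 3.55 ± 0.42 (SD, n = 3 each). CLE16 was higher on average, with a log2 difference of 0.28 and overlapping groups (limma, adjusted p = 0.638). CLE45, known from protophloem, and CLE21 and CLE27 were dim, with log2 differences of -0.18, -0.17 and -0.24 (limma, adjusted p = 0.709 to 0.756). Without WT replicate 3 the log2 difference was -0.49 for CLE20 and -0.44 for CLE27, and without ara6-1 replicate 1 it was -0.45 for CLE1 and 0.43 for CLE16. CLE21 had the lowest mean of the family. Over the 16 CLE genes the median was -0.03, 10 values were negative and 6 positive, and 3 had separated groups (18.8%, against 15.7% of all probe sets).

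**Figure D4:**
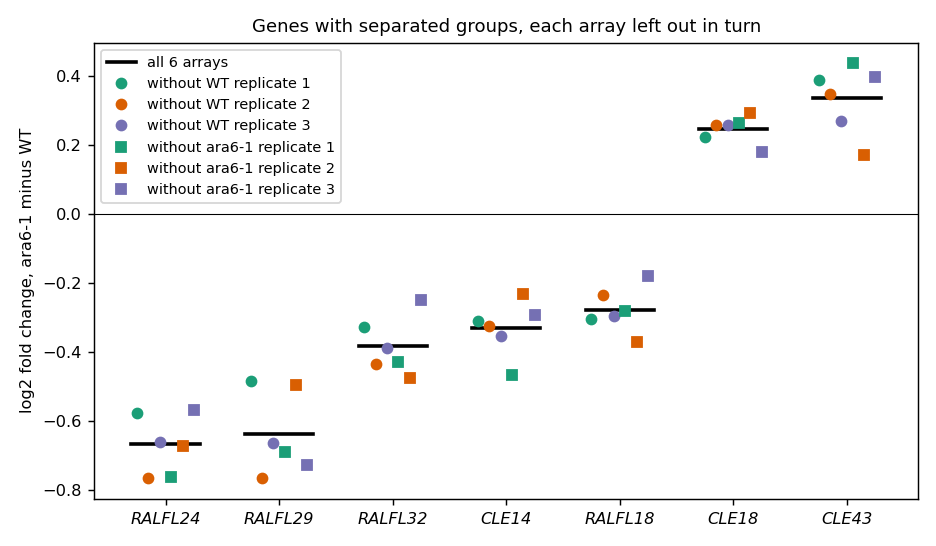
Log2 difference of ara6-1 against WT for the 7 peptide genes whose groups do not overlap, with all 6 arrays (black bar) and with each array left out in turn (circles for WT arrays, squares for ara6-1 arrays, coloured by replicate number). Because the groups do not overlap in these genes, the sign cannot change when an array is left out. The values range from -0.77 to -0.48 for RALFL29 and from 0.17 to 0.44 for CLE43.

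The IDA relatives were both measured near the middle of the array. IDL4 (AT3G18715) stood at 5.20, 4.85 and 4.75 in WT and at 4.72, 4.79 and 4.70 in ara6-1. WT replicate 1 was the highest, and WT replicate 3 overlapped with the mutant arrays. Its log2 difference was -0.20 with a 95% interval of -0.51 to 0.11 (limma, adjusted p = 0.667), and it was -0.07 without WT replicate 1. IDL3 (AT5G09805) stood at 4.65, 4.66 and 4.94 in WT and at 4.68, 4.55 and 4.59 in ara6-1. It had a log2 difference of -0.14 with a 95% interval of -0.40 to 0.13 (limma, adjusted p = 0.727). The higher mean of WT in IDL3 rests on replicate 3, an array that stood apart, and without it the log2 difference was -0.04.

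Of the 5 DVL/RTFL genes, 4 lay in the dim range and 0 had separated groups. RTFL7 (AT3G55515), the brightest, had means of 4.04 ± 0.20 and 3.96 ± 0.32 (SD, 3 WT and 3 ara6-1 arrays), a log2 difference of -0.08. RTFL18 (AT5G16023) varied most among the mutant arrays, at 2.91, 1.58 and 2.89 in ara6-1 against 2.14, 1.96 and 2.04 in WT. Replicates 1 and 3 lay above every WT array and replicate 2 below them. The log2 difference of RTFL18 was 0.41 with all arrays (limma, adjusted p = 0.720). It was 0.19 without ara6-1 replicate 1, 0.20 without replicate 3 and 0.85 without replicate 2 (limma, adjusted p = 0.602 for the last). Replicate 2 held the value unlike the other mutant arrays, so the 0.85 follows from the choice of the array left out. RTFL14 (AT3G63088) stood at 3.86, 4.01 and 2.85 in WT and at 3.34, 3.42 and 3.05 in ara6-1. It had a log2 difference of -0.30 with all arrays and -0.66 without WT replicate 3 (limma, adjusted p = 0.764 and 0.364). RTFL13 (AT3G23635) and DVL21 (AT3G23637) are direct neighbours in the annotation. Their log2 differences were 0.22 and -0.17 (limma, adjusted p = 0.721 and 0.666), with overlapping groups in both, and DVL21 was the dimmest of the family.

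Of the listed receptors and co-receptors of plant signalling peptides, 8 of 31 were measured under a gene name. The listed receptors of CLE and IDA peptides, such as PXY, HAESA and HSL2, were not among them. In limma 0 passed the threshold in either direction (background 0.0105%), with 1 at an unadjusted p under 0.05 (background 9.01%). FERONIA (FER, AT3G51550), the main RALF receptor of vegetative tissue, was at 8.68, 8.69 and 8.79 in WT and at 8.80, 8.72 and 8.85 in ara6-1. The groups overlapped, and the log2 difference of 0.07 had a 95% interval of -0.15 to 0.29. THESEUS1 (THE1, AT5G54380), the receptor of RALFL34, had a log2 difference of -0.20 (limma, adjusted p = 0.655), and of -0.08 without WT replicate 3.

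ANX2 (AT5G28680), with ANX1 a FERONIA relative that reads RALF peptides in pollen tubes, was at 2.70, 2.49 and 2.79 in WT and at 2.35, 2.20 and 1.81 in ara6-1. All mutant arrays lay below the WT arrays, in the dim range. ANX2 had a log2 difference of -0.54 (limma, unadjusted p = 0.0119, adjusted p = 0.517), and ANX1 (AT3G04690) of -0.42 (limma, adjusted p = 0.556). The log2 difference of ANX1 was -0.26 without ara6-1 replicate 1 and -0.19 without both arrays that stood apart. The other 4 measured receptors, PSY1R and the RGF receptors RGFR1, RGFR2 and RGFR3, had log2 differences between 0.05 and 0.25. The RGF/GLV family had 0 measured members, and PSY is not among the symbols chosen here.

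Among the loci listed as enzymes that mature peptide precursors, 3 of 6 were measured. In limma 0 passed (background 0.0105%), with 1 at an unadjusted p under 0.05 (background 9.01%). SBT1.1 (AT1G01900), a subtilase known to cut a phytosulfokine precursor, was at 5.65, 5.88 and 5.80 in WT and at 5.97, 6.25 and 6.39 in ara6-1. It was higher in all 3 mutant arrays, with a log2 difference of 0.43 and an SE of 0.13 (limma, unadjusted p = 0.0149, adjusted p = 0.518). SBT6.1 (AT5G19660), which cuts RALF23, was at 5.88, 5.88 and 5.87 in WT and at 5.93, 6.03 and 6.06 in ara6-1, a log2 difference of 0.13 with separated groups (limma, adjusted p = 0.672). Of all probe sets, 7.81% were separated with higher values in the mutant, and 3 measured loci are too few to set against that share. The other measured locus, AT1G20150, was listed as CRSP, but RefSeq does not give it that symbol. Whether it matures a peptide precursor is not known here, and its log2 difference was -0.14. Of 8 listed transcription factors downstream of the peptides, 3 were measured, all of the stomatal lineage that EPF peptides control. SPCH, MUTE and FAMA had log2 differences of 0.08, -0.07 and 0.05. In limma 0 of them passed (background 0.0105%) and 0 had an unadjusted p under 0.05 (background 9.01%).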

How the data were processed

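Biotin-labelled RNA of entire plants was measured on Affymetrix arrays after whole-transcript labelling, per the labels' protocols. The authors deposited linear intensity values. The submitters' processing notes name Affymetrix Expression Console 1.3, and no source used here names the summarization, genome build or annotation. The array medians were nearly equal, and no further normalization was made. At the low end the arrays differed slightly. The 5th percentile of the log2 values was 1.585 to 1.678 in WT and 1.536 to 1.585 in ara6-1. Renewed quantile normalization, run as an alternative, moved the median log2 difference of the peptide genes from -0.11 to -0.0688. Of 38408 rows, the 28501 written to at most 1 decimal were tested. What the other 9907 are is not given in the sources used here.

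Symbols were taken from the platform's table of probes and renewed through RefSeq (TAIR10.1) by gene identifier, where 16574 of 16722 were found. For 25 of the 41 members the locus came from the identifier, and for 16, whose identifier was not in that annotation, from the same symbol. The platform's table left 11053 tested probe sets without a gene.

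Groups were compared on log2 values with limma 3.58.1 in R 4.3.3 (lmFit, eBayes, two-sided). The p-values were adjusted over 28501 probe sets by Benjamini-Hochberg, and the threshold was 0.05. Intervals come from this fit. The number of arrays limits the precision. The p-values set the group difference against the spread between these samples, moderated with a prior from all tested probe sets. The labels do not say how the plants of a replicate were kept apart. On simulated data with 200 changed probe sets, the fit found 34% of the 1.5-fold changes. It found 78% of those of 2-fold and 100% of those of 4-fold. It made 5 false calls there, and 0 calls with nothing changed. The changed probe sets all lay above the median intensity, where 8 of the 41 peptide genes lie. The simulated noise was independent between probe sets. These shares therefore do not carry over to the dimmer genes. In the measured arrays ARA6, 2.35-fold lower in ara6-1, did not pass (limma, adjusted p = 0.140).

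Members and lists were chosen with earlier results of these data known. Named with their values were members with separated groups or an unadjusted p under 0.05 and, per family, the brightest, the dimmest and the most variable. Other members were named after their values were seen. Marker and pathway lists were matched by locus.

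Alternatives left out the dimmest 33.3% of probe sets, took all rows, normalized by quantiles, centred arrays, let the prior variance follow intensity, dropped moderation, gave arrays weights, used the replicate number as a block, or left out arrays. Every member had 1 probe set, so averaging probe sets per gene was not needed.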

Additional observations from a re-analysis of the deposited data

How the results depend on the processing

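In every alternative 0 of the peptide genes and 0 of the receptor, maturation and downstream genes passed the adjusted threshold in limma. The count over all probe sets, 3, was 16 with a prior variance that follows intensity, 0 without moderation and 1 without both arrays that stood apart. The 5 peptide genes at an unadjusted p under 0.05 (9.01% of all probe sets) became 3 with the dimmest probe sets left out (19 genes fitted, 11.1% of all probe sets fitted). They were 3 with all rows (7.52%), with a prior variance that follows intensity (10.2%) and without moderation (8.97%). After renewed quantile normalization (8.61%) and with centred arrays (9.11%) they were 6. They were 4 to 7 without single arrays (6.11% to 11.3%) and 7 without both arrays that stood apart (12.7%). The 7 genes with separated groups became 3 with the dimmest probe sets left out (18.2% of all probe sets fitted). They became 10 to 15 without single arrays and 18 without both arrays that stood apart, where fewer arrays overlap less by construction (22.5% to 31.8% and 46.4% of all probe sets). The median log2 difference of -0.11 was -0.0688 after renewed quantile normalization, -0.0775 with array weights, -0.11 to -0.0555 without single arrays and -0.0641 without both. The cause of these shifts was not tested. Log2 differences near 0 changed sign. CLE40 was at 0.0499 after quantile normalization and between -0.29 and 0.24 without single arrays, RALFL22 between -0.33 and 0.0507, RALFL30 between -0.0688 and 0.15, RALFL34 between -0.0468 and 0.21, and RTFL7 between -0.26 and 0.0165, with 0.0301 without both. Correlations of the deviations of same-numbered arrays were -0.20, 0.17 and -0.15. They cannot tell whether same-numbered samples were grown or processed together, which the labels do not state. With the replicate number as a block, 5 genes had an unadjusted p under 0.05 (7.99% of all probe sets), CLE26 in place of CLE18. The smallest adjusted p among the peptide genes was then 0.623 in limma. Signals near the low end of the arrays limit what the 22 dim genes can show.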
